A study of Mus musculus with 20 samples.

Results

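In E11.5 mouse embryos, 3 RNA-seq libraries labelled mutant and 3 labelled control were compared over all genes to describe the right ventricle and outflow tract after deletion of floxed Kmt2d with Mef2cAHF::Cre. They are 6 of the 20 RNA-seq libraries in the series, chosen by their sample titles, which name the Cre line and the genotype. The other libraries come from whole hearts of the Tnnt2::Cre line at the same stage (6 libraries) and of the Mesp1Cre line at E9.0 (8 libraries). All 6 libraries are from C57BL/6 embryos that carried the Cre transgene and 1 copy of the mTmG Cre reporter, both in the labelled controls and in the labelled mutants. Beside the Cre and mTmG/+, controls were Kmt2d fl/+ and mutants Kmt2d fl/fl, so the design sets loss of both alleles in the Cre domain against loss of 1 allele, and not against an undeleted heart. Mef2cAHF::Cre acts in anterior heart field precursors and their descendants, and the dissected tissue also holds cells that never carried active Cre. Each genotype has 3 dissected samples by the study's text, which gives no number of embryos per sample for this line, so the p-values measure the spread between these libraries, which may be in part technical.

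KMT2D is a histone methyltransferase that places methyl groups on lysine 4 of histone H3, mainly at enhancers, and it is the gene most often mutated in Kabuki syndrome, in which heart defects are common. The anterior heart field is the pool of mesodermal precursors that builds the right ventricle and the outflow tract, the vessel from which the aorta and the pulmonary trunk arise. At E11.5 the right ventricle is a young, beating muscle whose cardiomyocytes are still adding the contractile, calcium handling and ion transport proteins of working myocardium.

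The labels of these 6 libraries contradict each other. The sample titles, the genotype entries and the names of the read files call the first 3 libraries mutant, whereas the column names of the deposited table call the same 3 libraries wild type and the other 3 mutant. Groups follow the titles here and are named labelled mutant and labelled control, and every change is given as labelled mutant minus labelled control. If the column names were right, every sign of the comparison within these 6 libraries would be reversed and every "rose" would read "fell", with no change in size or in p, and the differences from other lines would take other values, given at the end. The index barcodes of the 3 libraries titled mutant are the same 3 that the Tnnt2::Cre line uses for its controls, and those of the 3 titled control are the 3 of the Tnnt2::Cre mutants.

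The targeted gene went against the titles. By quantitative PCR the study reports less Kmt2d in E11.5 hearts of this line's mutants than in those of heterozygous controls. Kmt2d is listed under its older symbol Mll2 (ENSMUSG00000048154; mm9 chromosome 15, 98664934 to 98701614, minus strand). Kmt2d was at 187, 189 and 194 CPM (read counts relative to the library total, TMM-scaled over the 6 libraries) in the libraries labelled mutant and at 146, 156 and 156 CPM in those labelled control. All 3 libraries labelled mutant lay above all 3 labelled control, and the rise in the labelled mutants was small but passed the test (log2 fold change 0.32 ± 0.06, SE, FDR = 0.0359). In the other lines, on a scale common to the 20 libraries, Kmt2d was at 114, 119 and 122 CPM in the Tnnt2::Cre mutants against 166, 155 and 125 CPM in their controls (log2 fold change -0.35 ± 0.12, SE, FDR = 0.327), and at 125 to 141 CPM in the Mesp1Cre mutants against 148 to 160 CPM in their controls (log2 fold change -0.21, FDR = 0.0764). On that scale the libraries labelled mutant for Mef2cAHF::Cre were at 183, 184 and 193 CPM and those labelled control at 141, 153 and 154 CPM. The genotype effect on Kmt2d differed between Mef2cAHF::Cre by its titles and Tnnt2::Cre by 0.66 ± 0.12 (log2, SE, FDR = 0.00298). The FDR for Kmt2d in the Mef2cAHF::Cre libraries missed the threshold with the replicate number as a block (0.0584) and stayed past it in only 1 of the 6 fits that leave out 1 library, the one without labelled control 2 (0.0236), with a log2 fold change of 0.28 to 0.34 over these 6 fits. Counts over the whole gene also include reads outside the floxed exons, so they need not fall in proportion to the deletion. This limit concerns the size of a fall, whereas by the titles the counts here rose.

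**Figure D1:**
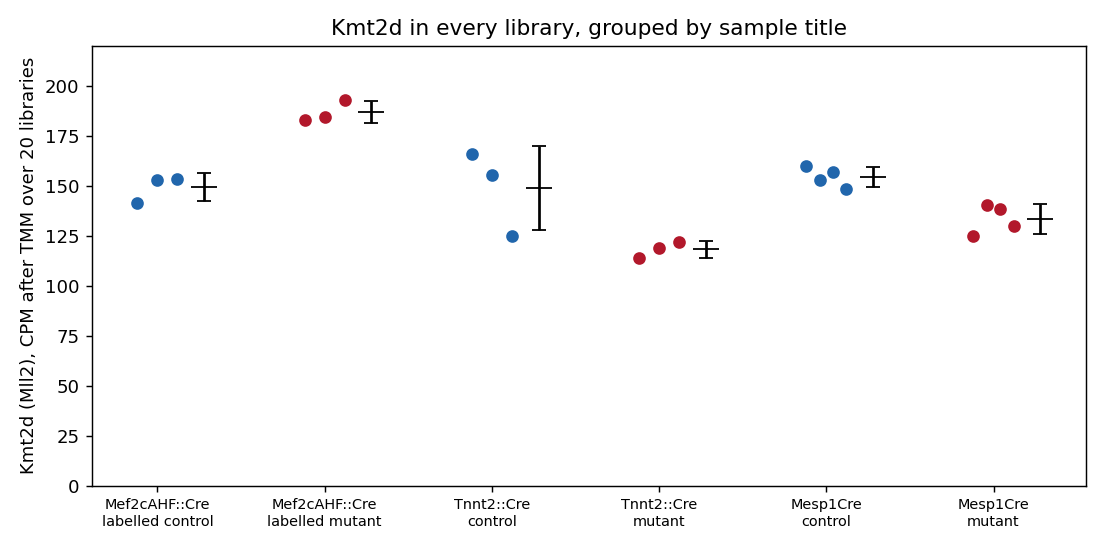
Kmt2d (Mll2) in each of the 20 libraries as CPM (vertical axis, after TMM scaling over the 20 libraries), with the mean and SD beside each group's points. By the sample titles the 3 libraries labelled mutant for Mef2cAHF::Cre sit at 183 to 193 CPM, above the labelled controls at 141 to 154 CPM, while the mutants of the other lines lie below the controls of their own line.

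The labelled mutants had 28122321 to 37165163 counted reads per library and the labelled controls 25001020 to 27568922. The labelled controls were the less uniform group: they spread from 6.59 to 44.3 on the first principal component of log2 CPM, which held 42.5% of the variance, and the labelled mutants from -34.0 to -15.3. Y-linked genes (Ddx3y, Eif2s3y, Kdm5d and Uty) summed to 222 CPM in labelled control 2 and to at most 0.510 CPM in each of the other libraries, so labelled control 2 differed in sex from the rest. Of 10 genes listed to check the dissection, 3 were higher in all 6 libraries than in any of the 6 whole hearts of the Tnnt2::Cre line: Sema3c, a guidance cue of outflow tract myocardium, at 66.2 to 76.8 against 17.1 to 31.1 CPM, Isl1, a transcription factor of the anterior heart field, at 8.43 to 20.7 against 1.41 to 4.01 CPM, and Bmp4, a growth factor of the outflow tract, at 67.3 to 94.1 against 24.4 to 36.2 CPM. The other 7 overlapped, Wnt11 and Tbx2 with lower medians here (4.68 and 4.10 against 6.31 and 5.12 CPM). Of 12 genes of the atria and the left ventricle, 10 were lower in all 6 libraries than in any whole heart. Among them Shox2 and Vsnl1, which mark the sinoatrial region and the atria, were at 0.213 to 0.342 and 0.723 to 3.49 CPM here and at 4.55 to 6.95 and 31.2 to 42.7 CPM in the whole hearts, values from separate dissections that were not tested against each other. Between the labelled groups the atrium and left ventricle list had a median log2 fold change of 0.29, or -0.05 without labelled mutant 2. Of its 11 genes tested 1 (Hcn4) rose past an FDR of 0.05, against 1.81% of all genes. The right ventricle and outflow list had a median of 0.05 with 0 of 9 past it. Whether the dissection differed between the groups was not tested.

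Changes are given as log2 fold changes with their SE and the FDR of edgeR's quasi-likelihood test, and group means of CPM with their SD (n = 3). Of 16920 genes tested, 482 (2.85%) passed an FDR of 0.05, 306 higher (1.81%) and 176 lower (1.04%) in the labelled mutants. At an unadjusted p under 0.05 there were 1635 higher (9.66%) and 1402 lower (8.29%). Leaving out labelled mutant 1, 2 or 3 left 78, 75 and 148 genes past the threshold, whereas leaving out labelled control 1, 2 or 3 left 489, 662 and 329. Of the 482 genes, 62 were past the threshold in all 6 of these fits (56 higher and 6 lower) and all 482 kept their direction in every one of them. These fits reuse the libraries in which the 482 genes were called, so the kept direction is no independent check. With erythroid content as a covariate 287 genes passed. On the FPKM values, which are scaled to the library total, the median of all genes moved by -0.13 on the log2 scale and the calls turned from 36.5% lower to 61.9% lower (111 higher and 180 lower, limma-trend with a pseudocount of 0.1).

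The largest rises and falls were taken only from genes whose groups did not overlap, so their separation was fixed by that choice. Among the largest rises were genes of striated muscle. Sgca encodes alpha-sarcoglycan, a membrane protein of the dystrophin complex that ties the muscle cytoskeleton to the matrix. The 3 labelled controls held 0.698, 0.361 and 0.348 CPM of Sgca and the 3 labelled mutants 8.56, 5.64 and 4.65 CPM. No labelled control reached 1 CPM and the groups did not overlap (log2 fold change 3.72 ± 0.35, SE, FDR = 0.00158). Eef1a2, the translation elongation factor isoform of mature muscle and neurons, showed the same separation. Eef1a2 stood at 6.48, 6.51 and 7.09 CPM in the labelled mutants against 1.01, 0.541 and 0.580 CPM in the labelled controls. Its log2 fold change was 3.22 ± 0.25. Fitm1, which partitions fat into lipid droplets in muscle, and Mypn, a Z-disc protein that binds nebulin and actinin, rose by 2.33 ± 0.22 and 2.17 ± 0.24 on the log2 scale. Rnf207, a ubiquitin ligase that shapes cardiac potassium currents, was at 17.8 ± 1.5 CPM in the labelled mutants and 3.99 ± 1.37 CPM in the labelled controls (log2 fold change 2.15 ± 0.21, SE, FDR = 0.00186). Gprin3 and Inpp5j rose with a log2 fold change of 2.10 ± 0.15 and 2.41 ± 0.27. All these genes remained past the threshold whichever 1 library was left out. Hydin and Fhdc1 passed in the full comparison (2.58 ± 0.48 and 2.07 ± 0.40) but in 3 and 2 of the 6 fits that leave out 1 library.

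Robo3, an axon guidance receptor, had the largest fall, at 0.429 ± 0.146 CPM in the labelled mutants against 4.14 ± 1.79 CPM in the labelled controls (log2 fold change -3.23 ± 0.41, SE, FDR = 0.00676). F2rl2 (a thrombin receptor), Pf4 (platelet factor 4), Plek (pleckstrin, a platelet kinase substrate) and Rgs18 (a platelet regulator of G protein signalling) had log2 fold changes of -2.63, -2.53, -2.36 and -2.54. Pf4 was at 16.2, 11 and 27.8 CPM in the libraries labelled mutant and at 50.5, 72.2 and 197 CPM in those labelled control. Labelled control 3 was the highest library for each of these 4 genes. The lowest labelled control lay above the highest labelled mutant, which the choice of the largest falls required. Esm1 and Apln, both made by sprouting endothelium, changed by -3.00 and -2.88 on the log2 scale (FDR = 0.0127 and 0.0305), and Apln ranged from 0.692 to 1.30 CPM in the labelled mutants, against 2.86, 13.9 and 5.84 CPM in the labelled controls. Cmah, which makes the sialic acid Neu5Gc, was at 1.74 ± 0.0941 CPM in the labelled mutants and 13.9 ± 4.41 CPM in the labelled controls (log2 fold change -2.99 ± 0.23, SE, FDR = 0.000697). Pion and Il10ra complete the 10 largest falls, with log2 fold changes of -2.51 ± 0.30 and -2.35 ± 0.43. Cmah and Pion stayed past the threshold whichever library was left out, Robo3 in 5 of those 6 fits, and the remaining genes in 3 or 4.

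**Figure D2:**
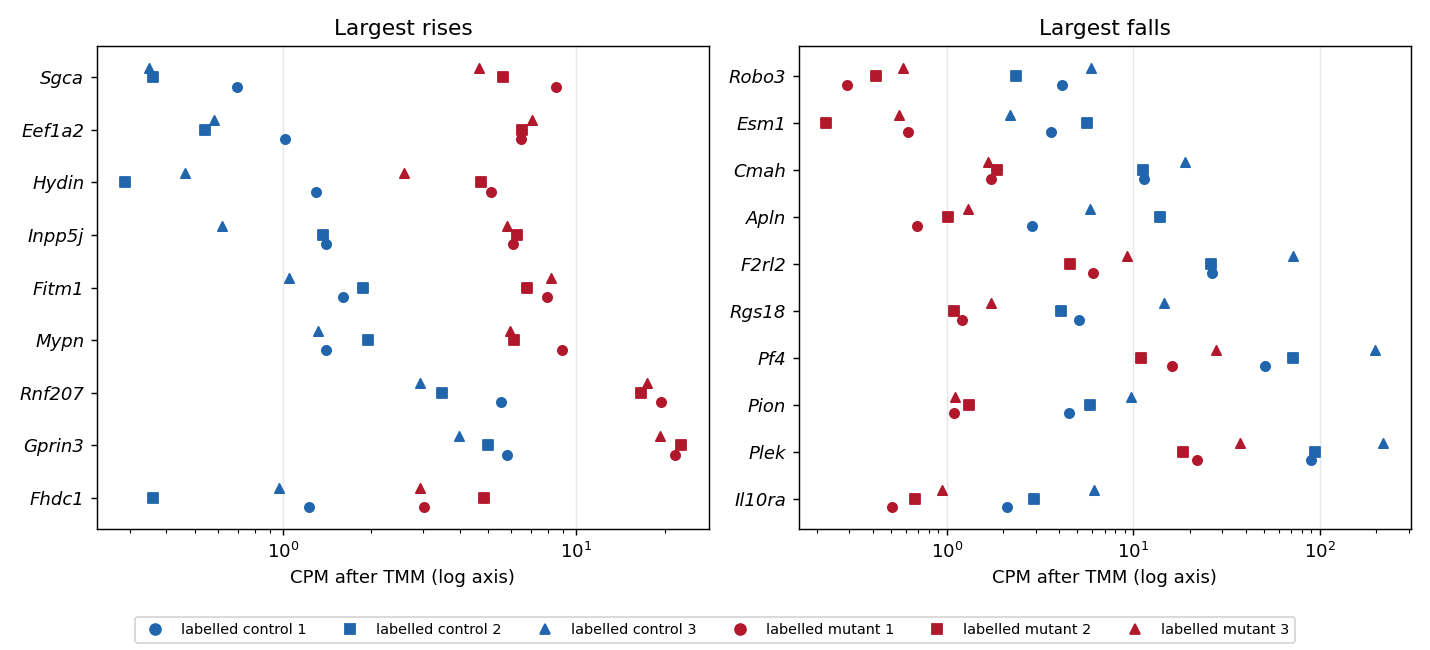
CPM in each library (horizontal axis, log scale) for the genes named among the largest rises and falls. Only genes that passed the test, averaged 1 or more on the log2 CPM scale and did not overlap between groups were eligible, with clone and model names left out, which fixes the separation of red and blue. Within the falls, labelled control 3 (blue triangle) is the highest library for the 4 platelet genes F2rl2, Rgs18, Pf4 and Plek, and for Apln labelled control 2 (blue square) is.

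Genes that the study names as KMT2D targets in Tnnt2::Cre hearts were mostly higher in the labelled mutants. The 10 genes of this list were chosen by the study from another line of the same series, so their common direction is not independent of that choice. The study names them as genes that are lower in the Tnnt2::Cre mutants, the opposite of the direction by the titles here. The list median was -0.92 in Tnnt2::Cre and -0.69 in Mesp1Cre. All 10 had a positive log2 fold change, 5 rose past the threshold and 0 fell, against 1.81% and 1.04% of all genes, and their median was 1.13 against -0.01 for all genes tested. Camk2a, a calcium and calmodulin dependent kinase, rose with no overlap between groups. In the labelled mutants Camk2a measured 87.7, 91.8 and 87.5 CPM, and in the labelled controls 33.7, 29.2 and 39.6 CPM. The labelled mutants differed among themselves by under 5 CPM, and the log2 fold change was 1.38 ± 0.11 (FDR = 0.000697). Fxyd1, phospholemman, which restrains the sodium pump, was at 36.2 ± 2.26 CPM in the labelled mutants and 13.5 ± 2.12 CPM in the labelled controls (log2 fold change 1.42 ± 0.12, SE, FDR = 0.000826). Hif3a, a HIF family member with inhibitory forms, rose by 1.24 ± 0.17. Camk2a and Fxyd1 passed whichever library was left out, while Hif3a was lost without labelled mutant 1 or 2 (FDR = 0.0526 and 0.0607).

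The dystrophin complex links actin inside the muscle fibre to laminin outside it. Of its 20 members tested, 4 rose and 1 fell, against 1.81% and 1.04% of all genes. The median was 0.12, and -0.02 on log2(FPKM + 0.1), where the median of all genes was -0.13. Besides Sgca, Cav3 (the caveolin of muscle) rose by 1.02 ± 0.19 and Dysf (dysferlin, for membrane repair) by 0.43 ± 0.09. Sntb1, the syntrophin of broader expression, fell by 0.65 (FDR = 0.0251). Dmd itself was at 169 to 188 CPM in the labelled mutants and 156 to 182 CPM in the labelled controls and did not pass the test (log2 fold change 0.10 ± 0.08, SE, FDR = 0.589). Leaving out labelled mutant 1 reduced the rises in this list to 1, and leaving out labelled mutant 2 or 3 or labelled control 1 reduced them to 2.

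In the sarcomere and Z-disc list 9 of 49 members rose and 0 fell, against 1.81% and 1.04% of all genes, with a median of 0.30 and 42 members positive. Tnni3, the cardiac troponin I that replaces the slow skeletal form during heart maturation, had the smallest FDR of the list. The 3 labelled controls held 61.2, 52.2 and 60.6 CPM of Tnni3 and the 3 labelled mutants 132, 115 and 123 CPM. Its groups were well apart (log2 fold change 1.09 ± 0.09, SE, FDR = 0.000697), and Tnni1, the slow skeletal form, was at 584 ± 39.0 against 431 ± 74.3 CPM without passing (log2 fold change 0.44 ± 0.12, SE, FDR = 0.0886). Mybphl, Myoz1 and Cmya5 (an atrial myosin binding protein homologue, a calsarcin and myospryn) rose by 1.87, 1.62 and 1.5 on the log2 scale. Des (desmin, the intermediate filament of muscle) rose by 0.93 ± 0.12, and Mylk3, Flnc and Myoz2 by 0.58, 0.43 and 0.43. For the abundant Myh7, Ttn and Tnnt2 the log2 fold changes were 0.17, 0.20 and 0.24, none past the threshold. Each of the labelled mutants, when left out, reduced the rises in this list from 9 to 3, and erythroid content as a covariate to 4.

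In a list of 40 genes of muscle metabolism and maintenance 14 rose and 1 fell (median 0.43, 37 positive), against 1.81% and 1.04% of all genes. Hfe2 (hemojuvelin, a BMP co-receptor of skeletal muscle, heart and liver) was near 0 in the labelled controls. Hfe2 stood at 3.17, 4.14 and 2.99 CPM in the labelled mutants against 0.209, 0.505 and 0.348 CPM in the labelled controls. The log2 fold change was 3.26 ± 0.33 (FDR = 0.00230). Eno3, the enolase of muscle, rose from 31.7 ± 6.28 to 79.9 ± 6.45 CPM (log2 fold change 1.33 ± 0.13, SE, FDR = 0.00209), and Pygm, muscle glycogen phosphorylase, from 32.5 ± 3.13 to 59.2 ± 6.50 CPM (log2 fold change 0.87 ± 0.10, SE, FDR = 0.00472). Cox8b, a respiratory chain subunit of striated muscle, rose by 2.42 ± 0.31, and Asb10 and Art1, at no more than 1.30 CPM in any library, by 2.81 and 2.71. Ckm, the muscle creatine kinase, was at 0.801, 0.941 and 0.609 CPM in the labelled mutants and at 0, 0.180 and 0 CPM in the labelled controls, and did not pass (FDR = 0.0511). It overlaps A930016O22Rik over 31.9% of its exon bases on the other strand. The 1 member that fell was Mb, myoglobin, the oxygen store of muscle. Mb was at 24.5, 28.8 and 25.6 CPM in the libraries labelled mutant and at 56.6, 91.9 and 39.7 CPM in those labelled control. Labelled control 2 was the highest (log2 fold change -1.25 ± 0.25, SE, FDR = 0.0368), and the call was lost when any labelled mutant or labelled control 1 was left out. From 8 to 16 rises were found in this list when any 1 library was left out, and 11 with erythroid content as a covariate. Here, as in all lists from bulk tissue, fewer cells of a type and less RNA per cell cannot be told apart.

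Calcium handling genes carry the beat-to-beat calcium transient. Of 44 tested, 9 rose and 1 fell, against 1.81% and 1.04% of all genes. The median was 0.12, and -0.01 on log2(FPKM + 0.1), where the median of all genes was -0.13. Hrc, the histidine-rich calcium binding protein of the sarcoplasmic reticulum lumen, had the smallest FDR of all genes after a copy of Eno1 described further on. In the labelled mutants Hrc measured 79.3, 69.1 and 73.1 CPM, and in the labelled controls 23.0, 18.3 and 16.8 CPM. The labelled mutant level was about the same in its 3 libraries and far above the labelled controls (log2 fold change 1.93 ± 0.12, SE, FDR = 0.000420). Its companions in the lumen and junction, Casq1 and Trdn (calsequestrin 1 and triadin), rose by 0.78 ± 0.10 and 0.76 ± 0.13, and Casq2, the cardiac calsequestrin, missed the threshold at 0.75 ± 0.17 (FDR = 0.0589). Pln, phospholamban, the brake of the calcium pump, was at 428 ± 8.07 against 285 ± 42.3 CPM (log2 fold change 0.59 ± 0.10, SE, FDR = 0.0243). Voltage-gated calcium channel genes Cacna2d2, Cacna1h and Cacna1d rose by 1.42, 0.72 and 0.56, and the plasma membrane pump Atp2b4 by 0.50. The release channel Ryr2 and the exchanger Slc8a1 did not pass, at -0.08 and 0.22. Atp2a3, the calcium pump of platelets and other blood cells, fell by 1.90 (FDR = 0.03). Hrc, Camk2a and Casq1 passed whichever library was left out, and the rises in this list dropped from 9 to 3 without labelled mutant 1 or 2, to 4 without labelled mutant 3 and to 4 with the erythroid covariate.

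Sodium pump, ion channel and gap junction genes had 10 rises and 3 falls among 50 tested (median 0.20), against 1.81% and 1.04% of all genes. Among those that rose were Kcnk3, a potassium leak channel, and Scn7a, a sodium-gated sodium channel. The 3 labelled controls held 5.65, 3.75 and 2.90 CPM of Kcnk3 and the 3 labelled mutants 15, 14.8 and 14.6 CPM. The labelled mutants lay within 1 CPM of each other (log2 fold change 1.85 ± 0.21, SE, FDR = 0.00370), and Scn7a rose by 1.83 ± 0.26. Kcnj3, an inwardly rectifying channel subunit of atrial and conduction tissue, Hcn4, the pacemaker channel, and Gja5, connexin 40 of trabeculae and conduction fibres, rose by 1.49, 0.98 and 0.92. Kcnj3 overlaps Gm17595 over 31.1% of its exon bases on the other strand. Gja4, Atp1b2 and Trpm4 rose by 0.77, 0.70 and 0.67. Kcne1 and Kcne3, beta subunits of potassium channels, had log2 fold changes of -0.71 and -2.35. Kcne3 ranged from 1.66 to 2.26 CPM in the labelled mutants, against 6.52, 17.1 and 4.95 CPM in the labelled controls. Without labelled mutant 1, 3 rises and 1 fall were left, without labelled mutant 2, 4 and 0, and without labelled mutant 3, 6 and 1.

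Of 74 nuclear-encoded genes of the mitochondrial respiratory chain 6 rose and 0 fell past the threshold, against 1.81% and 1.04% of all genes. A positive log2 fold change was found for 70, with a median of 0.19 that was 0.06 on both FPKM scales. The median of all genes was -0.13 on log2(FPKM + 0.1) and -0.10 on log2(FPKM + 1). At an unadjusted p under 0.05, 35 were higher and 0 lower, against 9.66% and 8.29% of all genes. The 3 largest were Ndufa5 at 0.48 ± 0.09, Atp5k at 0.48 ± 0.10 and Atp5j2 at 0.37 ± 0.07. When any labelled mutant was left out 0 members passed, without labelled control 1 there was 1, and with erythroid content as a covariate or on log2(FPKM + 0.1) there were 0. Among 38 fatty acid oxidation genes 5 rose and 0 fell. Their median was 0.08, or -0.04 on log2(FPKM + 0.1), where all genes were at -0.13. The rises were led by Esrrb, an oestrogen-related receptor, at 0.92 ± 0.19, and Pdk2, which restrains entry of pyruvate into the citrate cycle, at 0.79 ± 0.10. Fabp3 and Cpt1b, which carry fatty acids in the heart cell and into mitochondria, rose by 0.47 and 0.36, but 81.4% of the exon bases of Cpt1b are shared with Chkb on the same strand and its reads are uncertain. Fabp3 overlaps other genes over 19.6% of its exon bases on the other strand. Of the fatty acid oxidation genes named, only Pdk2 passed whichever library was left out.

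**Figure D3:**
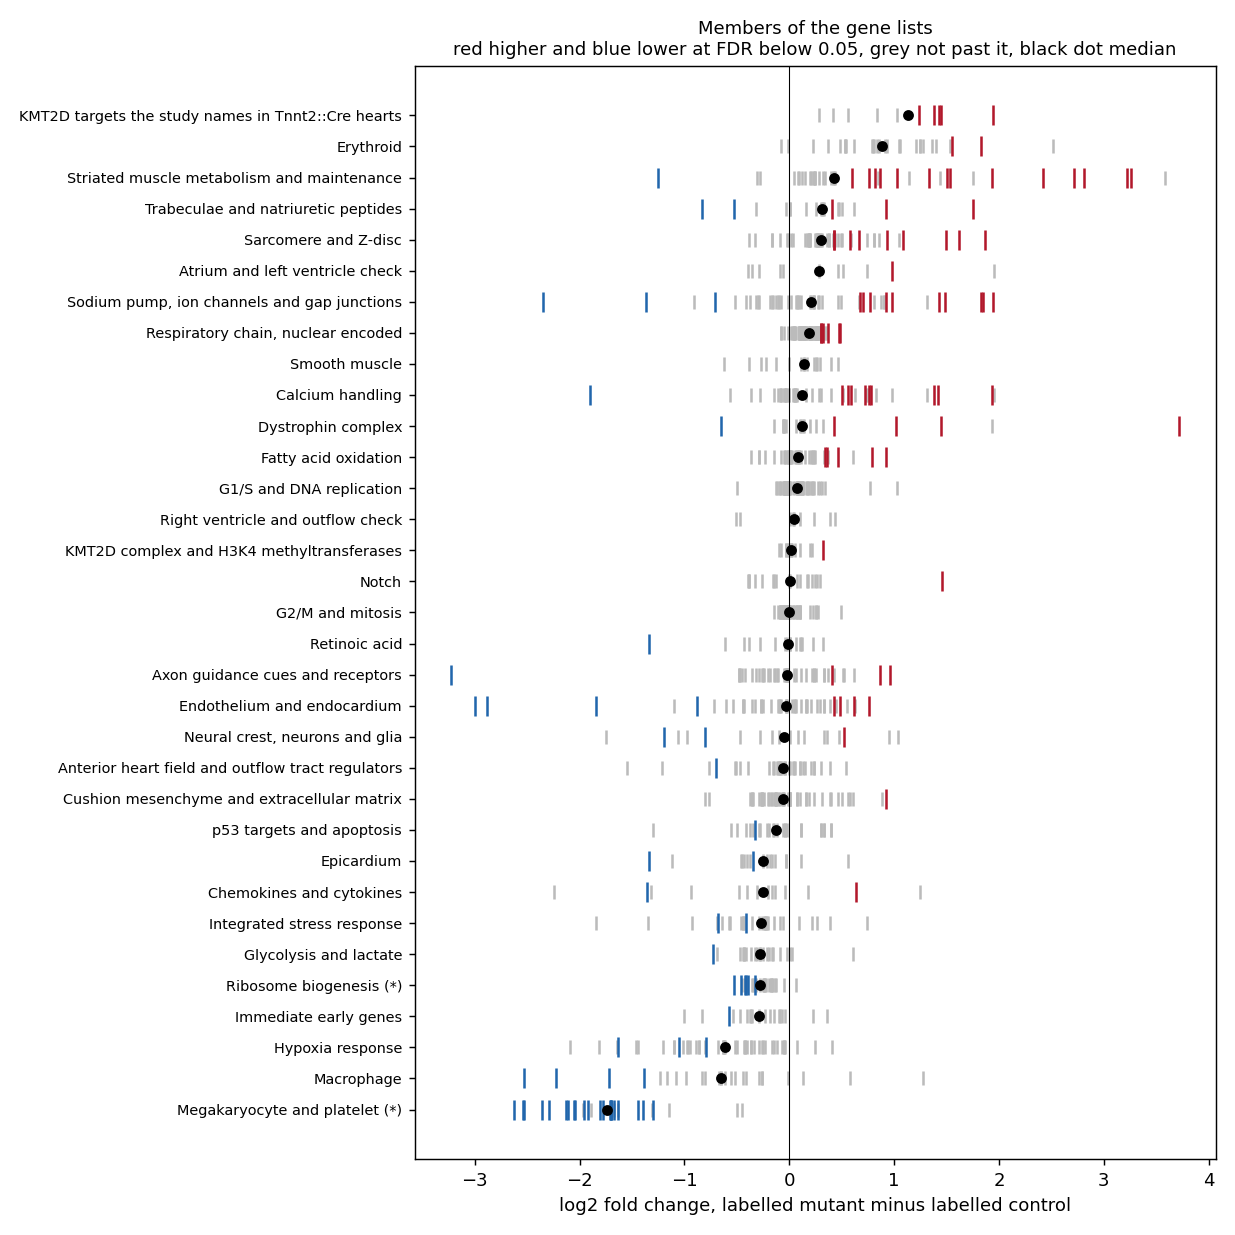
Log2 fold change of each list member (ticks, horizontal axis, labelled mutant minus labelled control), one row per list sorted by its median (black dot), with red and blue ticks past an FDR of 0.05. Muscle lists have most of their calls to the right of 0, hypoxia, macrophage and platelet lists to the left, and the 2 lists with an asterisk were put together after their values were seen.

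Genes that hypoxia-inducible factors switch on were lower in the labelled mutants. The study reports hypoxia response functions as enriched among the upregulated genes of its deletion mutants, this line included. Among the downregulated genes it reports ion transport. Both run opposite to the direction by the titles here. Of 48 tested, 45 were negative (median -0.62), 3 fell past the threshold and 0 rose, against 1.04% and 1.81% of all genes. At an unadjusted p under 0.05, 26 were lower, against 8.29% of all genes. Slc2a3 (a high-affinity glucose transporter), Pfkfb3 and Hk2 (which drive flux into glycolysis) had log2 fold changes of -1.63, -1.06 and -0.79. Slc2a3 stood at 47.7, 48.2 and 49.2 CPM in the labelled mutants against 86.7, 218 and 146 CPM in the labelled controls. Labelled control 2 was the highest and the 3 labelled mutants were nearly equal (log2 fold change -1.63 ± 0.27, SE, FDR = 0.0193). Hk2 was at 69.3, 63.3 and 71.8 CPM in the libraries labelled mutant and at 100.0, 158 and 96.3 CPM in those labelled control. The labelled controls were again the uneven group (log2 fold change -0.79 ± 0.17, SE, FDR = 0.0472). Vegfa and Bnip3, which promote vessel growth and mitophagy, showed the same order without passing the test. In the labelled mutants Vegfa measured 101, 93.4 and 100.2 CPM, and in the labelled controls 139, 271 and 135 CPM. The 3 labelled controls held 119, 316 and 157 CPM of Bnip3 and the 3 labelled mutants 103, 114 and 109 CPM. Their log2 fold changes were -0.89 ± 0.24 (FDR = 0.0867) and -0.86 ± 0.30 (FDR = 0.165). The median of the list was -0.25 without labelled control 2, with 10 members lower and 1 higher past the threshold, and -0.11 with the erythroid covariate, with 0 past it. Without labelled control 1 or 3 there were 10 and 5 falls, and without any 1 labelled mutant 0. Summed over the list, labelled control 2 stood at 4691 CPM, the other labelled controls at 2597 and 3062 CPM and the labelled mutants at 2451 to 2471 CPM.

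Promoter sequence was read for Hk2 and Pfkfb3, 2 of the 3 hypoxia genes past the threshold (Slc2a3 was not read), because these factors bind the core ACGTG (searched on both strands as ACGTG or CACGT, which overlap in the palindrome CACGTG). In the RefSeq table of build GRCm38.p6, 34 of the 48 hypoxia genes were matched, giving 42 promoters. The core lies in the 250 bases before the start in 3 of 3 promoters of Hk2 and Pfkfb3, in 22 of the 42 (52.4%) and in 5444 of 32851 (16.6%) of all promoters. The list was compiled as genes that these factors switch on, so its higher share is not independent of that choice. It is no result of these libraries. A match is a stretch of letters and not a bound site. The windows below are given 5′ to 3′ on the gene's own strand (minus), with the core in capitals: Hk2 at chr6:82774455-82774704, and the 2 starts of Pfkfb3 at chr2:11553930-11554179 and chr2:11502091-11502340.
Hk2: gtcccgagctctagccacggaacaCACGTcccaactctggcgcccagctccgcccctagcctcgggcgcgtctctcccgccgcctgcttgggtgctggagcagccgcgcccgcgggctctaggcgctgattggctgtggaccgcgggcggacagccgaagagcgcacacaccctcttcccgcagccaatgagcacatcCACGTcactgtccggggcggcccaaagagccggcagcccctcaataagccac
Pfkfb3, upstream start: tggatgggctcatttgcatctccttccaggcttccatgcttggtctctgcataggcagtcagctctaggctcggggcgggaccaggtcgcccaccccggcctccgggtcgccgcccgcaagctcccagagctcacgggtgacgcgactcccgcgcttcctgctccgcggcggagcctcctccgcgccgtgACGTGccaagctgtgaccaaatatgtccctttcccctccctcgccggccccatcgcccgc
Pfkfb3, downstream start: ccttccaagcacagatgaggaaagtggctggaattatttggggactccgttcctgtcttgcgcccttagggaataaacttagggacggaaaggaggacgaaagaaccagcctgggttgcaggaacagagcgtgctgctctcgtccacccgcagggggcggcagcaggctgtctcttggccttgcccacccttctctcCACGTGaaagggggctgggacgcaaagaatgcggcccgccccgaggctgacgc

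Glycolytic genes followed the hypoxia list with smaller changes: 19 of 22 were negative and the median was -0.28. Past the threshold 1 fell and 0 rose, against 1.04% and 1.81% of all genes. Without labelled control 2 the median was -0.07, with 2 members lower and 1 higher, and with the erythroid covariate it was 0.04. Pgk1 and Ldha were at -0.36 ± 0.15 and -0.30 ± 0.11 and did not pass. The 1 call, Eno1, has to be read with a near-identical copy, AC150274.1 on chromosome 18, named here after its values were seen. The 2 coding sequences have 1305 bases each and are 99.4% identical, and 80.7% of the runs of 50 bases in Eno1 are found unchanged in the copy. The copy had the largest fold change among the genes tested at an average log2 CPM of at least 1. AC150274.1 stood at 33.2, 29.7 and 30.4 CPM in the labelled mutants against 0.663, 0.865 and 0.696 CPM in the labelled controls. This separation did not follow genotype elsewhere: the copy had 1556 to 2578 counts in 7 libraries of the other lines and 32 to 86 counts in the remaining 7, with both kinds in controls and mutants of each line. Eno1 fell by 0.73 (FDR = 0.0109), a call lost when any 1 labelled mutant was left out, and the sum of Eno1 and its copy was 349 to 373 CPM in the labelled mutants against 475 to 632 CPM in the labelled controls.

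Vessel genes split. Among 45 endothelial and endocardial genes 4 rose and 4 fell, against 1.81% and 1.04% of all genes, with a median of -0.03. The general marker Cdh5 was at 0.16 ± 0.07 and did not pass. The falls were Esm1, Apln, Mmrn1 (multimerin 1, shared with platelets) and Edn1 (endothelin 1). Edn1 was at 12.5 ± 1.42 CPM in the labelled mutants and 23.1 ± 4.38 CPM in the labelled controls (log2 fold change -0.88 ± 0.15, SE, FDR = 0.0217). The rises were Npr3, the natriuretic peptide clearance receptor, Plvap, of endothelial diaphragms, Gpr126 and Ramp2. Npr3 was at 132, 121 and 125 CPM in the libraries labelled mutant and at 85.1, 81.6 and 79.1 CPM in those labelled control. Npr3 was the most even of them (log2 fold change 0.62 ± 0.07, SE, FDR = 0.00273) and passed whichever library was left out. Ramp2 shares 33.4% of its exon bases with Vps25 on the same strand. Without labelled mutant 1 or 2 there were 1 rise and 0 falls in this list.

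Trabeculae, the muscular ridges that line the ventricle, had 3 rises and 2 falls among 19 genes (median 0.31). Of all genes 1.81% rose and 1.04% fell. Cited1, a transcriptional co-regulator of ventricular myocardium, was the largest. In the labelled mutants Cited1 measured 154, 132 and 136 CPM, and in the labelled controls 59.4, 45.6 and 20 CPM. Labelled control 3 was the lowest (log2 fold change 1.75 ± 0.31, SE, FDR = 0.0250). Gja5 and Sema3a rose by 0.92 and 0.41. Nppb, the B-type natriuretic peptide, and Mycn, which drives growth of the compact wall, had log2 fold changes of -0.83 and -0.53, while Nppa was at -0.32 ± 0.23 and overlaps another gene over 61.5% of its exon bases on the other strand. All 5 calls were lost without any 1 labelled mutant.

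Of 35 regulators of the anterior heart field and outflow tract tested, 0 rose and 1 fell, a share near that of all genes (1.81% and 1.04%), with a median of -0.06. The fall was Nrp2, a semaphorin and VEGF receptor. The 3 labelled controls held 70.2, 93.3 and 77.1 CPM of Nrp2 and the 3 labelled mutants 49.7, 51.1 and 47.0 CPM. Its groups did not overlap (log2 fold change -0.70 ± 0.10, SE, FDR = 0.0131), but the call was lost when any 1 labelled mutant was left out and with the erythroid covariate (FDR = 0.0508). Isl1 was at 12.7 ± 3.54 CPM in the labelled mutants and 17.6 ± 3.03 CPM in the labelled controls (log2 fold change -0.47 ± 0.21, SE, FDR = 0.276), and Mef2c, Hand2 and Wnt11 were at -0.08, 0.24 and 0.39 with none past the threshold. Among 14 genes of the KMT2D complex and related methyltransferases Kmt2d was the 1 call. In Notch signalling 1 of 19 rose, the ligand Dll1 (4.94 ± 0.538 against 1.80 ± 0.348 CPM, log2 fold change 1.45 ± 0.20, SE, FDR = 0.0105), which overlaps A930024N18Rik over 20.5% of its exon bases. Among 45 axon guidance genes 3 rose (Sema3b, Efnb3 and Sema3a, by 0.96, 0.87 and 0.41) and 1 fell (Robo3), and Efnb3 passed whichever library was left out.

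Cushion mesenchyme and matrix genes had 1 rise and 0 falls among 50 (median -0.06), near the 1.81% and 1.04% of all genes. The rise was Col2a1, the cartilage collagen also made in valve cushions. Col2a1 stood at 139.6, 108 and 132 CPM in the labelled mutants against 56.8, 58.2 and 85.8 CPM in the labelled controls. Sox9 and Twist1 were at -0.14 and -0.20 and did not pass. Smooth muscle genes had 0 calls among 16 by edgeR (3 higher and 2 lower at an unadjusted p under 0.05), 2 rises by DESeq2 and 0 calls by limma on the FPKM scales. Epicardial genes had 0 rises and 2 falls among 17 (median -0.25), a larger share than the 1.04% lower of all genes: Podxl fell by 0.35, a call lost in 4 of the 6 fits that leave out 1 library, and Aldh1a1, a retinaldehyde dehydrogenase, more. Aldh1a1 was at 10.1, 10.1 and 7.26 CPM in the libraries labelled mutant and at 24.4, 22.0 and 22.7 CPM in those labelled control. The 3 labelled mutants were all below 11 CPM and the 3 labelled controls all above 21 CPM (log2 fold change -1.34 ± 0.14, SE, FDR = 0.00245), a call that held whichever library was left out and that is also the 1 call among 16 retinoic acid genes. Among 18 neural genes (median -0.05) 1 rose and 2 fell, against 1.81% and 1.04% of all genes, and all these calls were lost when any 1 labelled mutant was left out. Ednrb rose by 0.52, and Nefl and Gap43 of neurons had log2 fold changes of -1.19 and -0.80, with 32.8% of the exon bases of Nefl shared with Nefm on the other strand. Sox10 was at no more than 0.692 CPM in any library.

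Cell cycle genes did not pass edgeR's test in either direction, and DESeq2 called 1 rise in each of the lists. Of 50 G1/S genes 0 passed (5 higher and 0 lower at an unadjusted p under 0.05). Their median was 0.07, and -0.05 on log2(FPKM + 0.1), where the median of all genes was -0.13. Of 40 G2/M genes 0 passed (3 higher and 0 lower at an unadjusted p under 0.05), with a median of 0.00. Leaving out labelled mutant 3, labelled control 2 or labelled control 3 gave 1 call in the G1/S list. Among growth and stress genes, 17 of 19 immediate early genes were negative (median -0.28) with Myc the 1 fall, and 25 of 30 genes of the integrated stress response were negative (median -0.27) with Mthfd2 and Psat1, of mitochondrial folate and serine synthesis, as the 2 falls at -0.68 and -0.42. In the labelled mutants Myc measured 29.7, 29.2 and 28.7 CPM, and in the labelled controls 40.4, 42.6 and 47.7 CPM. The Myc groups did not overlap (log2 fold change -0.58 ± 0.08, SE, FDR = 0.0105), and the call was lost when any 1 labelled mutant was left out, as was Psat1. In the p53 list 1 of 26 fell (Zmat3, at -0.33). Of all genes tested 1.04% fell. Ribosome biogenesis genes, a list put together after falls among them were seen, had 28 of 29 negative with a median of -0.28, and 6 fell past the threshold, among them Nsun2, Gnl3 and Nop16 at -0.53, -0.47 and -0.42, and 0 did when any 1 labelled mutant was left out, 3 and 1 without labelled control 1 or 3, and 12 without labelled control 2.

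Genes of 2 kinds of blood cells had medians of opposite sign. Of 28 erythroid genes 26 were positive with a median of 0.88, 2 rose past the threshold (Hba-a1 and Hbb-b1, adult-type globins whose near-identical copies can share reads) and 0 fell, and 18 were higher at an unadjusted p under 0.05 against 9.66% of all genes. The 3 labelled controls held 135, 65.8 and 180.4 CPM of Hba-a1 and the 3 labelled mutants 460.0, 656 and 244 CPM. Summed over the list, erythroid reads were at 49423, 50078 and 26499 CPM in the labelled mutants and 22219, 7797 and 33783 CPM in the labelled controls, so the groups overlapped and labelled control 2 was the lowest. Without labelled mutant 1 or 2, with the replicate number as a block, on the FPKM scales or in a fit of all 20 libraries 0 erythroid genes passed, without labelled control 3 there was 1, and without labelled control 2 the median was 0.54. Megakaryocyte and platelet genes, a list of 30 put together after falls among them were seen, were all negative (median -1.74). Of these 22 fell, against 1.04% of all genes. Their sum was 241, 207 and 361 CPM in the labelled mutants and 708, 723 and 1573 CPM in the labelled controls, with labelled control 3 the highest. Ppbp, Itgb3 and Clec1b (a platelet chemokine, the fibrinogen receptor beta chain and a platelet lectin receptor) had log2 fold changes of -2.29, -1.81 and -2.05. Without labelled control 3, 20 members fell and the median was -1.31. Without labelled mutant 1, 2 or 3, 1, 0 and 9 fell. Macrophage genes had 0 rises and 4 falls among 25 (median -0.65), against 1.81% and 1.04% of all genes. The falls were Pf4, Gp49a, Aif1 and Laptm5, of which Pf4 is also a platelet gene. When any 1 labelled mutant was left out 0 macrophage genes fell, without labelled control 2 or 3 there were 2 and 1, and without labelled control 2 the median was -0.39. Gp49a passed in 1 of these 6 fits, Laptm5 in 2, Pf4 in 3 and Aif1 in 0. The macrophage markers Csf1r, Ptprc and Emr1 were at -0.56 ± 0.22, -0.84 ± 0.21 and -0.80 ± 0.25, and Lyz2 at 0.58 ± 0.13, with none past the threshold. Among 14 chemokines and cytokines Ccl2 fell by 1.35 and Cxcr7 rose by 0.64, which passed in 4 and 2 of the 6 fits. The part of blood cell content in the other results was not tested beyond the erythroid covariate.

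**Figure D4:**
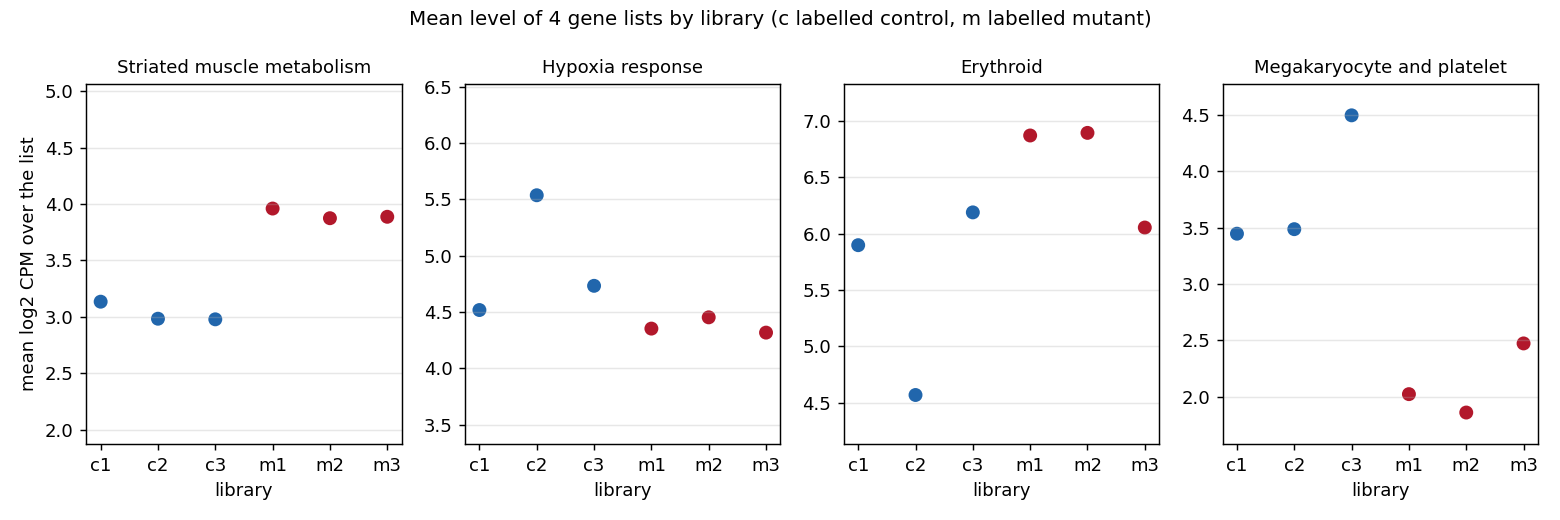
Mean log2 CPM (vertical axis, the same span in each panel) over the members of 4 lists in each library, c for labelled control and m for labelled mutant. The muscle list separates the groups at 3.88 to 3.96 against 2.98 to 3.13, labelled control 2 stands apart in the hypoxia list at 5.54 and in the erythroid list at 4.57, and labelled control 3 is the highest in the platelet list at 4.50.

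The same genotype contrast in whole hearts of the Tnnt2::Cre line, which shares no library with this one, ran the other way by the titles. Of the 482 genes past the threshold here, 479 were also tested there, and 439 of them (91.6%) had the opposite sign. Across 16385 genes the log2 fold changes of the lines correlated with Pearson's r = -0.52, a description across genes, which are not independent replicates. In the younger Mesp1Cre hearts (E9.0) 365 of 443 (82.4%) had the opposite sign, with r = -0.38 across 15493 genes. Tested as a difference of effects in 1 fit of all 20 libraries, 586 of 18391 genes (3.19%) differed between Mef2cAHF::Cre by its titles and Tnnt2::Cre. When the Mef2cAHF::Cre genotypes were taken from the column names instead, 0 genes differed by edgeR's test, with 472 at an unadjusted p under 0.05, and no other tool was run for this contrast. The largest differences in the positive direction were Sgca, Eef1a2 and Hfe2, by 6.49 ± 0.54 (log2, SE, FDR = 3.54e-07), 6.07 ± 0.50 (log2, SE, FDR = 3.54e-07) and 5.66 ± 0.69 (log2, SE, FDR = 6.79e-05). Sgca was the extreme case: its log2 fold change was 3.72 in the labelled mutants here and -2.77 in the Tnnt2::Cre mutants (FDR = 0.00211). Hrc was at 1.93 here and at -1.22 in Tnnt2::Cre, Camk2a at 1.38 and -0.98, and Eno3 at 1.33 and -1.46. In the negative direction they were Chac1, Apln and Kcne3, by -4.72 ± 1.15 (log2, SE, FDR = 0.0277), -4.67 ± 0.90 (log2, SE, FDR = 0.00602) and -4.26 ± 0.92 (log2, SE, FDR = 0.0128). The hypoxia list had a median of -0.62 here and 0.62 in Tnnt2::Cre, and the erythroid list of 0.88 and -0.99. Platelet genes had a median of -1.74 here and 0.31 in Tnnt2::Cre, where Pf4 was at 0.90 and did not pass (FDR = 0.599). Some genes had the same sign in another line: Npr3 rose by 0.62 here and was at 0.20 in Tnnt2::Cre and 0.62 in Mesp1Cre (FDR = 0.478 and 0.00140). Angpt1, a ligand of the endothelial receptor Tie2, named after its values were seen, rose by 1.07 ± 0.08 here. In Tnnt2::Cre it was near 0 with the opposite sign, at -0.05 (FDR = 0.878).

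**Figure D5:**
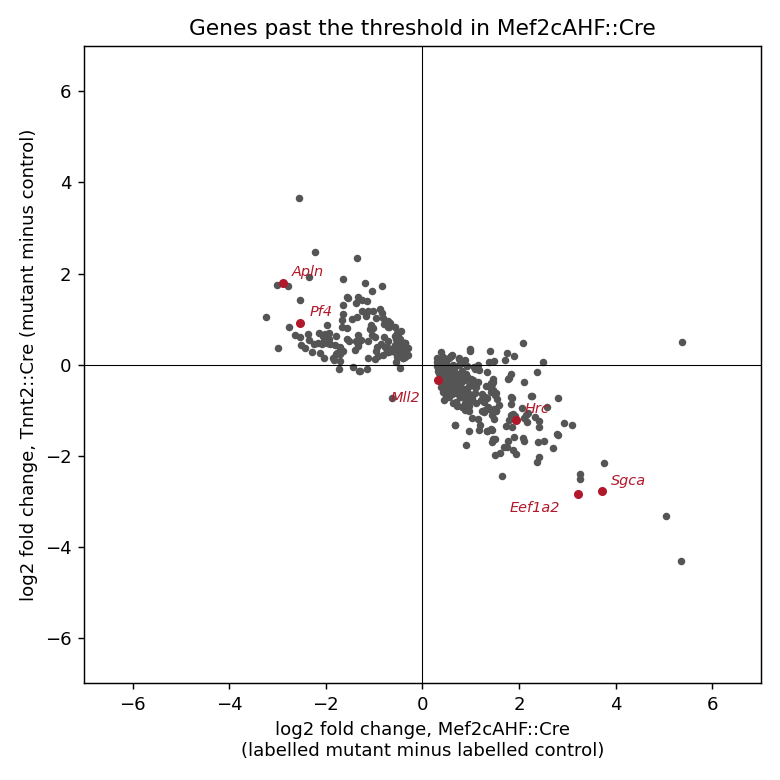
Log2 fold change of the 479 genes past the threshold in the Mef2cAHF::Cre libraries (horizontal axis, labelled mutant minus labelled control) against the same gene in Tnnt2::Cre hearts (vertical axis, mutant minus control), with 6 genes named. Of the points, 439 lie in the quadrants of opposite sign and 40 in those of the same sign.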

How the data were processed

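RNA-seq was done on 20 libraries of E9.0 or E11.5 embryonic hearts, of which 6 are compared here. The authors deposited 1 table with read counts per gene and FPKM (the counts divided by gene length and library total) for every library. Per the labels and the submitters' processing notes reads were aligned to mm9 with TopHat2 2.0.8b, and per the study's methods counted per gene with featureCounts. The strand setting is not given in the sources used here, so reads of genes that overlap cannot be told apart. Labels and methods also name different library kits. A further 20 columns of variance-corrected values were not used.

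Counts were analysed in R 4.3.3 with edgeR 4.0.16 (low-count filter of edgeR, TMM scaling, quasi-likelihood test, Benjamini-Hochberg FDR below 0.05) on the 6 libraries, without the replicate number. The difference from Tnnt2::Cre was tested as a contrast in a fit of the 6 groups of all 20 libraries. DESeq2 1.42.0 and limma 3.58.1, the latter on log2 of the deposited FPKM plus a pseudocount of 0.1 or 1, were alternatives, with other scalings, filters, a thinning of libraries to 25001020 counts, an erythroid covariate and the omission of each library. The scripts were tested on simulated data. No 2 replicates were close enough to be 1 library.

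Members and gene lists were chosen with earlier results of these data known. The genes named are Kmt2d, the 10 largest rises and 10 largest falls that passed the test, averaged 1 or more on the log2 CPM scale and had groups apart (clone and model names left out), up to 3 rises and 3 falls of each list with its key members, and the 3 largest differences from Tnnt2::Cre in each direction. Further members of the lists, the platelet and ribosome biogenesis lists and the Eno1 copy were named after their values were seen. A few genes within this rule are not reported here. Of the listed symbols 8 were not found in the table. Lists are described by counts and medians, with no test of the list.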

Additional observations from a re-analysis of the deposited data

Results flagged for a closer look

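The genotype effect differed between the Mef2cAHF::Cre libraries, by their titles, and the Tnnt2::Cre hearts in 586 genes, by edgeR's test of the difference of effects. Among the genes named for it, the difference on the log2 scale was 6.494 for Sgca, 6.074 for Eef1a2 and 5.664 for Hfe2, which were higher in the labelled mutants here and lower in the Tnnt2::Cre mutants. It was -4.721 for Chac1, -4.67 for Apln and -4.258 for Kcne3, in the opposite sense. Chac1 did not pass the test within the Mef2cAHF::Cre libraries. The tissue and the Cre line differ together between these groups and cannot be told apart. With the Mef2cAHF::Cre genotypes taken from the column names instead, 0 genes differed. Kmt2d was higher in the labelled mutants here (log2 fold change 0.317). In the mutants of the other lines it was lower, without passing the test. By the column names it would be lower in the mutants here as well. The 586 differences hold only if the titles are right, and which of the labels are right was not tested.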

How the results depend on the processing

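The count of 482 genes was within 1.5 times with DESeq2 size factors, at least 10 counts in every library, thinning, and the replicate number as a block (517). It was 1311 with no filter on low counts, 1078 with DESeq2, 291 and 253 with limma on log2(FPKM + 0.1) and log2(FPKM + 1), 287 with the erythroid covariate and 129 in a fit of all 20 libraries, and it ranged from 75 to 662 when 1 library was left out. On the FPKM scales 61.9% and 58.9% of calls were lower against 36.5%, with the median of all genes at -0.131 and -0.096. The cause of these changes was not tested. Kmt2d kept its direction: its log2 fold change was 0.317 with the block (FDR = 0.0584), 0.181 and 0.167 on the FPKM scales, 0.346 with the erythroid covariate and 0.316 with all 20 libraries, none past the threshold, and 0.285 to 0.336 without 1 library. The count of 586 differences from Tnnt2::Cre was 1084 in the 12 libraries of E11.5, 396 with the replicate block, 295 to 475 without 1 library of the Mef2cAHF::Cre line, and 0 with genotypes by the column names, where the differences for Apln, Kcne3, Hfe2, Eef1a2 and Sgca turned to 1.109, 0.434, -0.861, -0.373 and -0.948. Dmd, which did not pass, turned to -0.034 and -0.031 on the FPKM scales. The replicate numbers did not pair the libraries: deviations from the group means correlated at 0.177, -0.015 and 0.06 within numbers 1, 2 and 3, and only number 1 correlated best with itself. With the block, 393 of the 482 genes stayed past the threshold. With 3 libraries a group and 25001020 to 37165163 reads, small changes in genes of few reads could not be detected.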
